A study of Homo sapiens with 9 samples.

Results

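The HMGA and oncofetal RNA-binding genes are a set of 7: the chromatin proteins HMGA1 and HMGA2, and the RNA-binding proteins IGF2BP1, IGF2BP2, IGF2BP3, LIN28A and LIN28B. They were taken by symbol, as the relatives and functional partners against which the response of HMGA2 was to be set, and they are 7 of the 62700 genes in the count table. RNA was measured by polyA-selected sequencing in 9 libraries of 293T, an established line grown from human embryonic kidney and widely used for transfection. Each group had 3 libraries: cells transfected with an empty vector, with HA-tagged CIC::DUX4, or with HA-tagged CIC::NUTM1 joining CIC exon 20 to NUTM1 exon 6. In all groups 300000 cells received plasmid by reverse transfection with Fugene 6, and RNA was taken about 48 hours later. The labels place the replicates on separate transfection days. The fusions were carried on plasmids in 1 cell line that is not the tumour's cell of origin, and all cells kept their own genes.

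HMGA proteins are small architectural factors that bend AT-rich DNA and are abundant in embryos and in many tumours. IGF2BP proteins bind and stabilise mRNAs, HMGA2 mRNA among them, and LIN28 proteins block the maturation of let-7, a microRNA family that lowers HMGA2, LIN28B and IGF2BP mRNAs in differentiated tissue. CIC is a transcriptional repressor that binds octamers of the TGAATGAA type. In sarcomas its fusions to DUX4 or NUTM1 turn it into an activator.

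The 9 let-7 names in RefSeq (GRCh38.p14, miR-98 included) share the seed GAGGUAG at bases 2 to 8. The family's namesake is printed first, with its seed in capitals, because its complement CTACCTC is what the listed genes hold in common. Below it stands the first CTACCTC, in capitals, of each gene's 3′ UTR, with the bases before it and 1 base after it, read from the principal transcript in GENCODE 29.
hsa-let-7a-5p: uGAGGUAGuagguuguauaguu
HMGA2: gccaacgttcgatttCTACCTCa
LIN28B: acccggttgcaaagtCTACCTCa
IGF2BP1: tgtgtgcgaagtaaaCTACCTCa
IGF2BP2: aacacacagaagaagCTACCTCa
IGF2BP3: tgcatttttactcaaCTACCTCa
HMGA1: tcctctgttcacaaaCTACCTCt
LIN28A: gcacagcctattgaaCTACCTCa

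All 7 genes held CTACCTC on the transcript strand, against 8.83% of 18377 genes with a 3′ UTR of 50 bases or more. Among 6512 genes whose 3′ UTR was as long as those of the 7 (1346 to 6206 bases), 15.1% held it. HMGA2, LIN28B and IGF2BP1 each held 4 copies, and IGF2BP2, IGF2BP3, HMGA1 and LIN28A each held 1. HMGA2 and LIN28B have the first copy near the stop codon, at base 21 and base 44 of the 3′ UTR. The set holds genes already known as let-7 targets, as said above, so this contrast with other genes is not a test of enrichment. A match to the seed is a description of the sequence and not a tested site, and these polyA libraries do not measure mature let-7.

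Library totals lay between 16970771 and 33655445 counts, and 17576 genes had enough counts to be tested. CIC, NUTM1 and DUX4 transcripts were not analysed here, which leaves the plasmid labels without a check. The 6 markers used for the line (PAX2, VIM, KRT8, KRT18, NES and INA) were all above 3 counts in all groups, with summed levels of 661 to 709 CPM (counts per library size, with edgeR's TMM scaling) in empty vector, 738 to 790 in CIC::DUX4 and 781 to 843 in CIC::NUTM1. VIM made most of each sum, at 573, 634 and 710 CPM in group means, and was called higher with CIC::NUTM1 (edgeR adjusted p = 1.11e-04). INA was called lower with CIC::NUTM1 (adjusted p = 0.0269) and KRT8 higher with CIC::DUX4 (adjusted p = 0.0116), and between the fusions KRT8, NES and INA were called lower in CIC::NUTM1 (adjusted p = 0.014, 0.0148 and 0.0497). The 6 markers of leukocytes, hepatocytes, endothelium and fibroblasts summed to between 0.146 and 0.229 CPM in empty vector, 0.815 and 4.54 in CIC::DUX4, and 0.918 and 2.46 in CIC::NUTM1, and their part in the results was not tested. PTPRC, which marks leukocytes, had 0 to 2 counts in empty vector, 3 to 24 with CIC::DUX4 and 13 to 24 with CIC::NUTM1. It was the 1 of these markers with enough counts to be tested. PTPRC was called higher with CIC::DUX4 (log2 3.83, edgeR adjusted p = 0.0242) and with CIC::NUTM1 (log2 4.86). It stood at 0.915 CPM in the first CIC::DUX4 library and 0.144 and 0.176 in the others of that group. COL1A2, which marks fibroblasts, had 64 counts in the first CIC::DUX4 library and at most 7 elsewhere.

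The first CIC::DUX4 library stood apart. Of 14 genes that mark pluripotent cells, a list chosen after its levels were seen, all 14 were above 3 counts there and 13 were highest there. The other libraries had 4 or 5 of the 14 above 3 counts and 8 to 10 at 0. The summed level of the list was 269 CPM in the first CIC::DUX4 library, 124 and 119 in the other CIC::DUX4 libraries, 95.7 to 111 in empty vector and 158 to 209.8 in CIC::NUTM1. In the CIC::NUTM1 libraries 9 or 10 of the 14 were at 0, and SOX2 stood at 105 ± 24.1 CPM (SD, n = 3) against 32.7 ± 3.58 in empty vector (log2 1.69, edgeR adjusted p = 2.63e-05). POU5F1, the core pluripotency factor, had 1402 counts in the first CIC::DUX4 library and at most 1 elsewhere. LIN28A and LIN28B are themselves known from pluripotent cells. The edgeR tests among the 7 genes that involve CIC::DUX4 are therefore given with and without this library. So are those of the called genes in the lists chosen by function below. The permutation tests of LIN28A and of count ratios were not rerun without this library. No test without this library is given for the marker genes. KRT8, a called marker of the line, stood at 36.9 CPM there and 18.6 to 19.3 in the other CIC::DUX4 libraries. NES stood at 14.9 against 8.41 to 8.77 CPM, and INA at 21.7 against 18.8 to 20.2. The empty vector means of KRT8, NES and INA were 10.1, 8.32 and 20.2 CPM.

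**Figure D1:**
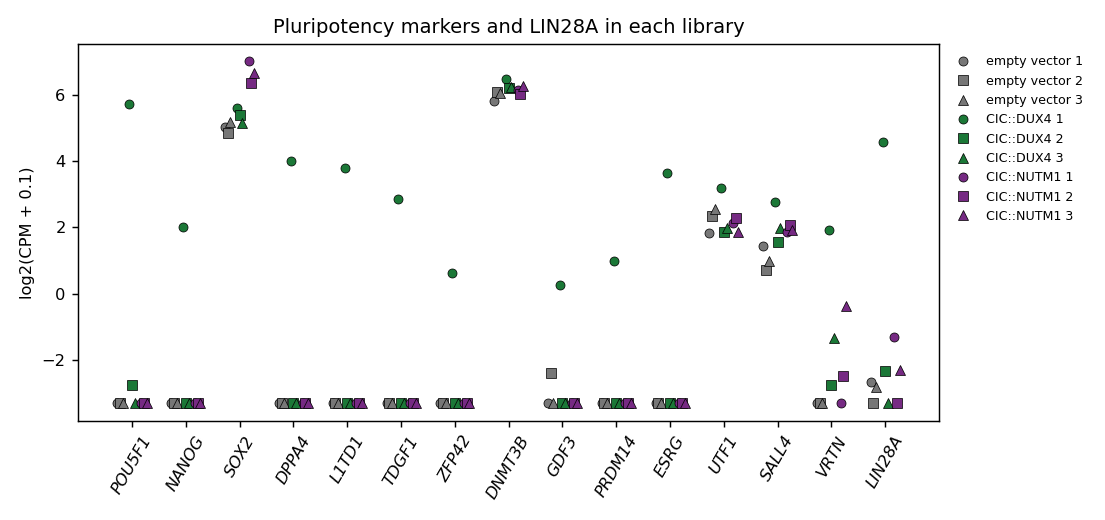
Levels of pluripotency markers and LIN28A in the 9 libraries, as log2 of TMM-scaled CPM with a small constant added, with each point 1 library. The first CIC::DUX4 library is the only one with LIN28A above 0.30 CPM, at 23.9 CPM.

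HMGA2, which is silent in most adult tissue and is a recurrent oncogene in mesenchymal tumours, was the more responsive of the HMGA genes. The gene lies at chr12:65824131-65966295 on the plus strand of GRCh38. Its level was 125, 119 and 124.5 CPM in the empty vector libraries, 149, 151 and 145 with CIC::DUX4, and 226, 207 and 228 with CIC::NUTM1. The 3 groups formed separate bands with no overlap. Against empty vector, HMGA2 rose 1.20-fold with CIC::DUX4 (log2 fold change 0.27 ± 0.06 SE, adjusted p = 0.00483) and 1.79-fold with CIC::NUTM1 (0.84 ± 0.06, adjusted p = 3.08e-10), by edgeR's quasi-likelihood test with Benjamini-Hochberg adjustment over all tested genes. Set directly against each other, CIC::NUTM1 gave 1.49-fold more HMGA2 than CIC::DUX4 (0.57 ± 0.06, adjusted p = 5.78e-07). Without the first CIC::DUX4 library these were 0.27 (adjusted p = 0.0265) for CIC::DUX4 and 0.57 (adjusted p = 1.26e-05) between the fusions. In bulk RNA, fewer responding cells and less RNA per cell cannot be told apart, and the share of cells transfected was not measured here.

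HMGA1, the constitutive relative of HMGA2 in dividing cells, showed no such bands. It lies at chr6:34236873-34246231 on the plus strand. Its level was 633, 662 and 694 CPM in empty vector, 646, 623 and 685 with CIC::DUX4, and 678, 692 and 667 with CIC::NUTM1, so the ranges of all groups overlapped. The log2 fold change was -0.03 with CIC::DUX4 (95% interval -0.14 to 0.08, edgeR adjusted p = 0.851) and 0.03 with CIC::NUTM1 (-0.08 to 0.14, adjusted p = 0.749), and its sign with CIC::NUTM1 turned under library totals and upper quartile scaling. Between the fusions it was 0.06 (-0.05 to 0.17, adjusted p = 0.613). HMGA1 without the first CIC::DUX4 library was at -0.02 with CIC::DUX4 (adjusted p = 0.929) and 0.05 between the fusions (adjusted p = 0.734). The HMGA2 change lay above the HMGA1 interval in each comparison. The 8 annotated HMGA1 pseudogenes held 132 counts in all libraries together, against 134815 for HMGA1.

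The ratio of HMGA2 counts to HMGA1 counts within a library needs no scaling between libraries. It was 0.198, 0.180 and 0.179 in empty vector, 0.230, 0.243 and 0.211 with CIC::DUX4, and 0.333, 0.299 and 0.341 with CIC::NUTM1. All pairs of groups were separate. With 3 libraries against 3, the exact two-sided permutation p was 0.1 in each of these 3 comparisons, the smallest the design allows (0.124 after adjustment over 21 ratio comparisons).

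**Figure D2:**
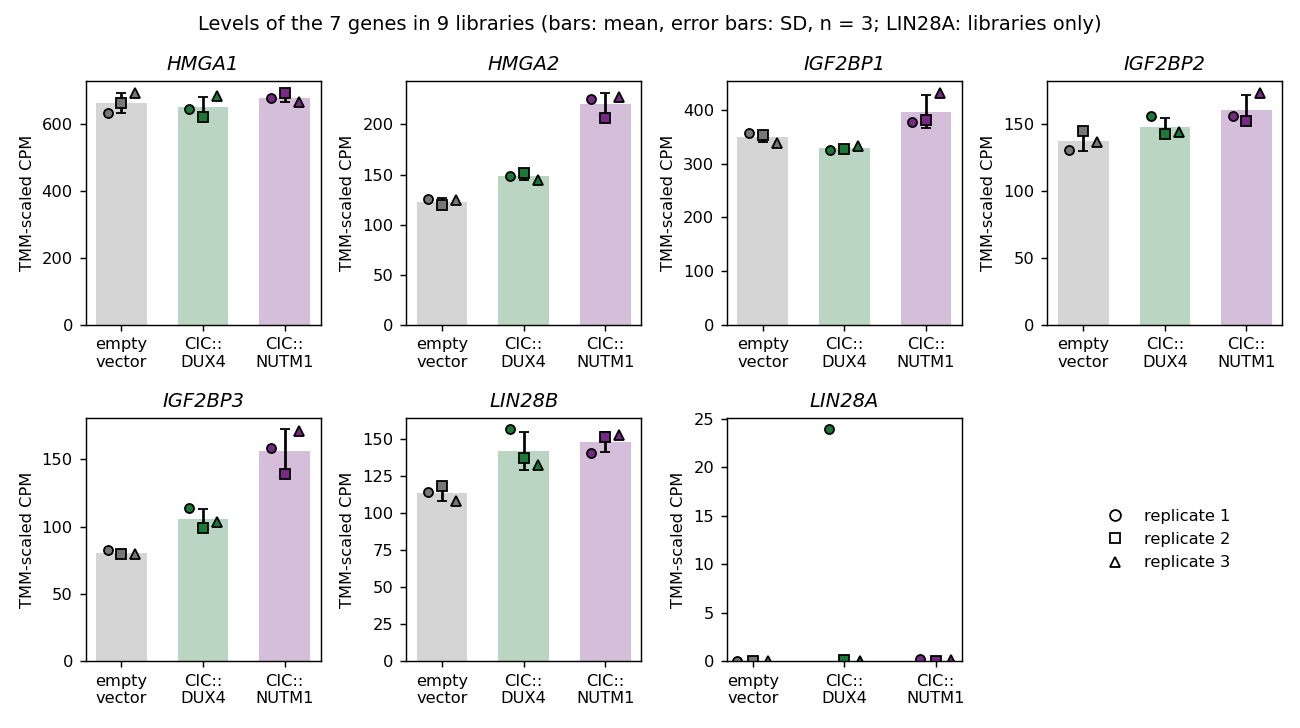
TMM-scaled CPM of the 7 genes in each library, with the bar at the group mean, the line giving the SD (n = 3) and marker shape giving the replicate; LIN28A is shown by library alone. HMGA2 and IGF2BP3 form 3 separate bands, HMGA1 is level, and LIN28A is high in 1 library.

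IGF2BP3, the most strictly fetal of its family and a common tumour marker, had the largest changes against empty vector among the 6 tested genes. It lies at chr7:23310209-23470467 on the minus strand. Its level was 82.6, 79.4 and 79.7 CPM in empty vector, 114, 99.3 and 104 with CIC::DUX4, and 159, 139 and 171 with CIC::NUTM1. No groups overlapped. The rise was 1.31-fold with CIC::DUX4 (log2 0.39 ± 0.08 SE, edgeR adjusted p = 0.000926) and 1.94-fold with CIC::NUTM1 (0.96 ± 0.08, adjusted p = 1.1e-09), and CIC::NUTM1 stood 1.48-fold above CIC::DUX4 (0.56 ± 0.08, adjusted p = 1.56e-05). Without the first CIC::DUX4 library the CIC::DUX4 rise was 0.33 (adjusted p = 0.0165) and the difference between the fusions 0.62 (adjusted p = 3.7e-05). IGF2BP3 shares 1521 exonic bases with MALSU1 on the opposite strand, and MALSU1, a mitochondrial ribosome assembly factor, was not called in any comparison (adjusted p = 0.781 and 0.582 against empty vector, 0.919 between the fusions).

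IGF2BP1, which shields MYC and other mRNAs from decay, moved differently with the fusions. It lies at chr17:48997412-49055650 on the plus strand. Its level was 358, 354 and 340 CPM in empty vector, 326, 328 and 333 with CIC::DUX4, and 378, 381 and 433 with CIC::NUTM1. The CIC::DUX4 libraries were all below and the CIC::NUTM1 libraries all above those with empty vector. The log2 fold change was -0.09 with CIC::DUX4 (adjusted p = 0.444 by edgeR), 0.18 ± 0.06 SE with CIC::NUTM1 (adjusted p = 0.0353) and 0.27 ± 0.06 between the fusions (adjusted p = 0.00383). Leaving out the first CIC::DUX4 library gave -0.08 (adjusted p = 0.664) and 0.26 (adjusted p = 0.0221) for the comparisons with CIC::DUX4. The call between the fusions was lost without the third CIC::NUTM1 library (0.19, adjusted p = 0.0901), and the CIC::NUTM1 call against empty vector was lost without any 1 of the empty vector libraries or the third CIC::NUTM1 library (0.09 to 0.19, adjusted p = 0.0708 to 0.38) and in 4 of 9 other alternatives.

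IGF2BP2, the family member that persists in adult tissue, is at chr3:185643739-185825056 on the minus strand. It stood at 130, 145 and 137 CPM in empty vector, 156, 142 and 144 with CIC::DUX4, and 156, 152 and 173 with CIC::NUTM1. The CIC::DUX4 libraries overlapped both other groups, and those of CIC::NUTM1 were above all with empty vector. The change passed the test for CIC::NUTM1 against empty vector alone (log2 0.22 ± 0.07 SE, edgeR adjusted p = 0.0254), and that call was lost without the first or the third empty vector library or the third CIC::NUTM1 library (0.14 to 0.22, adjusted p = 0.0926 to 0.237) and in 3 of 9 other alternatives. For CIC::DUX4 it was 0.10 (adjusted p = 0.457) and between the fusions 0.12 (adjusted p = 0.369). Leaving out the first CIC::DUX4 library gave 0.06 (adjusted p = 0.816) and 0.16 (adjusted p = 0.285).

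LIN28B, the LIN28 gene of fetal tissue and many tumours, lies at chr6:104936616-105083332 on the plus strand. Its level was 115, 119 and 108 CPM in empty vector, 157, 137 and 133 with CIC::DUX4, and 141, 151 and 153 with CIC::NUTM1. Both fusion groups were above empty vector and overlapped each other. LIN28B rose by 0.32 ± 0.07 (log2, SE) with CIC::DUX4 (edgeR adjusted p = 0.00316) and by 0.38 ± 0.07 with CIC::NUTM1 (adjusted p = 0.0003). Its highest CIC::DUX4 value came from the library with the pluripotency markers, and without that library the change was 0.24 (adjusted p = 0.0607). Between the fusions the difference was 0.06 (95% interval -0.09 to 0.21, adjusted p = 0.734) and, without that library, 0.14 (adjusted p = 0.379). The HMGA2 difference was 0.57 either way.

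LIN28A, the LIN28 gene typical of embryonic stem cells, lies at chr1:26410778-26429722 on the plus strand and did not pass the abundance filter. It had 1, 0 and 1 counts in empty vector, 627, 2 and 0 with CIC::DUX4, and 5, 0 and 2 with CIC::NUTM1. The 627 counts, 23.9 CPM, were in the library with the pluripotency markers, and all others were at or below 0.30 CPM. An exact two-sided permutation test gave p = 0.5 for CIC::DUX4 and p = 0.4 for CIC::NUTM1 against empty vector. The floor of 3 counts corresponded to 0.0878 to 0.18 CPM across libraries and covers counting error only.

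**Figure D3:**
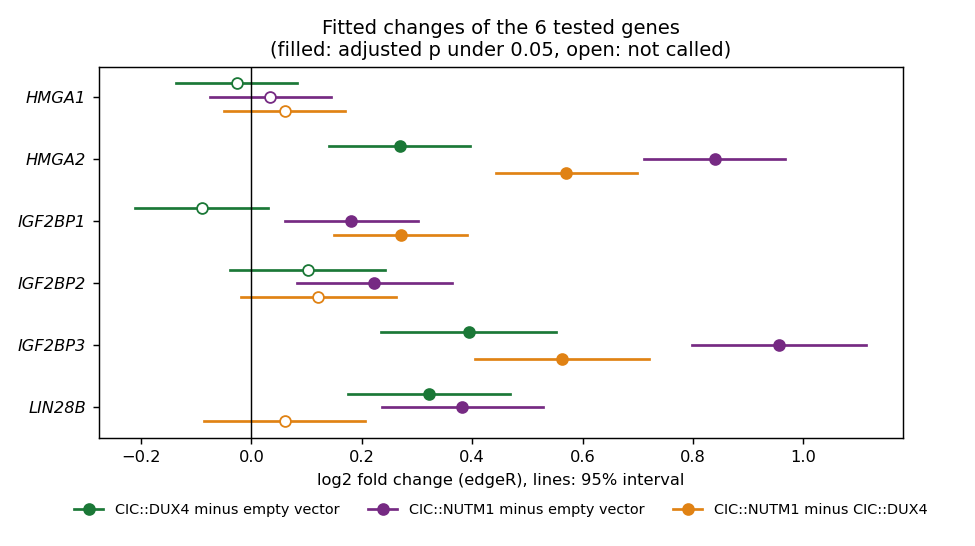
Log2 fold changes of the 6 tested genes with 95% intervals from edgeR; filled points have an adjusted p under 0.05. HMGA2 and IGF2BP3 are to the right of 0 in all 3 comparisons, and HMGA1 intervals cross 0 throughout.

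With CIC::DUX4, 3 of the 6 tested genes were called higher (HMGA2, IGF2BP3 and LIN28B) and none lower, and 4 of 6 had libraries that did not overlap with empty vector. Of all 17576 tested genes, 6.96% were called higher, 1.27% lower and 8.24% either way, and 25.7% did not overlap. Without the first CIC::DUX4 library 2 of the 6 were called higher, against 4.45% of 18103 genes tested in that fit. With CIC::NUTM1, 5 of 6 were called higher and none lower, and the same number did not overlap; of all genes, 11.5% were called higher, 3.83% lower and 15.3% either way, and 31.1% did not overlap. Between the fusions 3 of 6 (HMGA2, IGF2BP1 and IGF2BP3) were called higher with CIC::NUTM1 and did not overlap. Of all genes, 4.97% were called higher there, 1.64% lower and 6.61% either way, and 22% did not overlap. With the first CIC::DUX4 library left out, these 3 were called higher, against 3.92% of all genes. The median log2 fold change of the 6 was 0.19, 0.30 and 0.20 in these comparisons, and that of all tested genes was -0.00145, -0.000863 and -0.00528. The comparisons share libraries. The 6 genes were picked as a family, with earlier results of these data known, and not sampled, so these counts are no test of the family.

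Ratios of HMGA2 to the other genes were compared in the same way, with the first CIC::DUX4 library included. That library was the lowest of its group for HMGA2 over IGF2BP3 (1.30), LIN28B (0.948) and IGF2BP2 (0.953). It was not the lowest for HMGA2 over IGF2BP1 or HMGA1. The ratio of HMGA2 to IGF2BP3 counts was 1.53 ± 0.0316 (SD, n = 3) in empty vector, 1.41 ± 0.111 with CIC::DUX4 and 1.41 ± 0.0761 with CIC::NUTM1. The exact permutation p was 0.3 for CIC::DUX4 and 0.1, the smallest possible, for CIC::NUTM1 against empty vector. The ratio to LIN28B was 1.08 ± 0.0744 in empty vector and 1.05 ± 0.0857 with CIC::DUX4, and it was 1.49 ± 0.120 with CIC::NUTM1, above all other libraries (exact permutation p = 0.1 against each of the other groups). HMGA2 against IGF2BP1 went from 0.351 ± 0.0149 to 0.450 ± 0.0139 with CIC::DUX4 and 0.555 ± 0.0373 with CIC::NUTM1, with no overlap between groups. HMGA2 against IGF2BP2 was 0.898 ± 0.0698 in empty vector and 1.01 ± 0.0547 with CIC::DUX4, which overlapped (exact permutation p = 0.2). It was 1.37 ± 0.0680 with CIC::NUTM1, without overlap. Within the IGF2BP family, the ratio of IGF2BP3 to IGF2BP1 was 0.230 ± 0.00514, 0.321 ± 0.0251 and 0.393 ± 0.0269 in the same order, again without overlap.

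**Figure D4:**
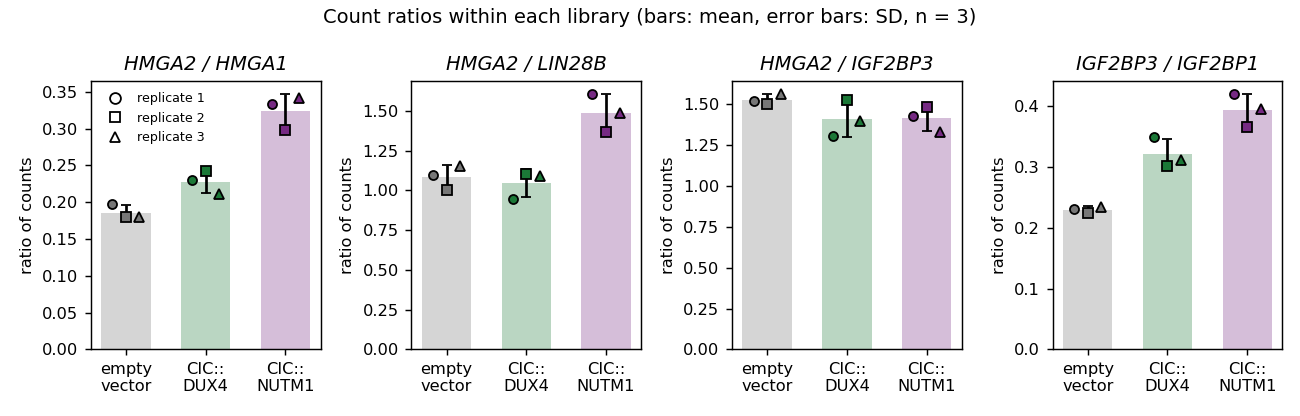
Ratios of counts within each library, HMGA2 over HMGA1, LIN28B and IGF2BP3, and IGF2BP3 over IGF2BP1, with each point 1 library of the 3 groups. HMGA2 over HMGA1 separates all groups, and HMGA2 over IGF2BP3 stays between 1.30 and 1.56.

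Levels of different genes were compared per kilobase of the principal transcript. In empty vector the mean was 307 CPM per kb for HMGA1, 42.4 for IGF2BP1, 37.3 for IGF2BP2, 27.5 for HMGA2, 20.7 for LIN28B, 18.96 for IGF2BP3 and 0.00809 for LIN28A, and no neighbours in this order overlapped. With CIC::DUX4, HMGA2 stood between IGF2BP1 and LIN28B at 33.1 CPM per kb. With CIC::NUTM1 it reached 49.2, next to HMGA1 at 314 but overlapping both IGF2BP1 at 48.0 and IGF2BP2 at 43.5. In the same group IGF2BP3 at 36.8 was above LIN28B at 26.9. With CIC::DUX4, LIN28B at 25.8 and IGF2BP3 at 24.9 overlapped, as did IGF2BP2 at 40.0 and IGF2BP1 at 39.8. These ranks depend on the transcript chosen: with all annotated exons joined, HMGA2 spans 15.4 kb and ranked 6 of 7 in each group.

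The genes closest to HMGA2 over the 9 libraries, by Pearson r of log2 CPM among 11923 genes, were ZNRF2 (0.995), DACH1 (0.993), RGL1 (0.992), NR4A3 (0.992) and TES (0.991). Group means of all 5 were lowest in empty vector and highest with CIC::NUTM1. NR4A3, a nuclear receptor, went from 3.59 ± 0.589 CPM (SD, n = 3) to 7.17 ± 0.272 and 53.1 ± 14.6. The most opposed were HOTAIR (-0.991), TMEM129 (-0.986) and SLC46A1 (-0.974). IGF2BP3 ranked 26 (r = 0.982), IGF2BP2 1020 (0.800), LIN28B 1280 (0.754), IGF2BP1 1454 (0.725) and HMGA1 3841 (0.288). These values describe 9 libraries in 3 groups, so they largely follow the order of the group means and carry no p-value.

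RefSeq promoter windows (GRCh38.p14, 250 bases before to 50 after a transcript start) were matched for HMGA1, IGF2BP2, IGF2BP3 and LIN28B, with 7 windows among them. They were searched on both strands for the CIC octamers TGAATGAA, TCAATGAA, TGAATGGA and TCAATGGA, which 3.77% of 35116 windows held. Of the 7, 1 held an octamer, shown here because LIN28B was among the genes called. It was TGAATGAA on the opposite strand, 170 bases before a LIN28B transcript start. It is in capitals within the 60 bases of chr6:104956911-104956970, printed on the plus strand.
LIN28B: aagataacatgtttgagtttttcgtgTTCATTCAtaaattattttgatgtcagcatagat

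The window with the match (chr6:104956857-104957156) lies inside the span of LIN28B, which starts at base 104936616. No match was found in the other LIN28B window (chr6:104940715-104941014) or in those of IGF2BP3, IGF2BP2 and HMGA1. That says only that these letters are not there. HMGA2, IGF2BP1 and LIN28A were not among the matched windows.

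Transcripts that overlap the genes had low counts, MALSU1 apart. HMGA2-AS1, the antisense transcript that shares exonic bases with HMGA2 (384), had 0 counts in every empty vector library, 21, 10 and 5 with CIC::DUX4, and 2, 14 and 6 with CIC::NUTM1, and was below the abundance filter. RPSAP52, a pseudogene transcript antisense to HMGA2 with no shared exonic base, had 0, 2 and 0 counts in empty vector, 18, 18 and 0 with CIC::DUX4, and 18, 19 and 7 with CIC::NUTM1 (edgeR adjusted p = 0.0205 and 0.00501 against empty vector). LIN28B-AS1, antisense to LIN28B, had 2, 0 and 4, then 2, 6 and 7, then 23, 16 and 11 counts in the same order and was called higher with CIC::NUTM1 (adjusted p = 0.0106). The library kit marks strand, but whether the counting used it is not given in the sources used here. The highest count of these 3 transcripts in a library was 23, and the lowest in a library was 2189 for HMGA2 and 2002 for LIN28B.

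Genes that act around these proteins were taken in 6 lists, chosen by function. Among 13 genes of let-7 biogenesis and its LIN28 cofactors, none was called with CIC::DUX4, against 8.24% of all tested genes. CIC::NUTM1 gave 1 higher and 1 lower call in this list, where 11.5% and 3.83% of all tested genes were called. Setting the fusions against each other also gave 1 higher and 1 lower call, beside shares of 4.97% and 1.64%. Counts this small are no test of the list. With CIC::NUTM1, AGO2, the slicing Argonaute, rose (log2 0.48, edgeR adjusted p = 7.32e-04) and TRIM71, an RNA-binding ubiquitin ligase that let-7 targets, fell by 0.49 (adjusted p = 0.0107). That call was lost without the third empty vector or the first CIC::NUTM1 library (adjusted p = 0.0763 at most). Between the fusions AGO2 was higher with CIC::NUTM1 (0.45, adjusted p = 0.00343; 0.47, adjusted p = 0.00971, without the first CIC::DUX4 library) and TRIM71 lower (-0.46, adjusted p = 0.0325). The TRIM71 call was lost without the first or second CIC::DUX4 or the first CIC::NUTM1 library (-0.46 to -0.33, adjusted p = 0.0912 to 0.165) and in 1 of 9 other alternatives. The list's median log2 fold change was 0.03, 0.01 and 0.06 in the order CIC::DUX4, CIC::NUTM1 and between the fusions. TUT4, the uridylyl transferase that LIN28A recruits to let-7 precursors, had log2 fold changes of -0.01 and -0.0022 against empty vector (adjusted p = 0.958 and 0.991).

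Of 14 other let-7 target genes, 3 were higher and none lower with each fusion. Of all tested genes, 6.96% were called higher and 1.27% lower with CIC::DUX4, and 11.5% and 3.83% with CIC::NUTM1. PBX3, a homeodomain cofactor, stood at 30.7 ± 2.55 CPM (SD, n = 3) in empty vector, 52.0 ± 6.86 with CIC::DUX4 and 84.7 ± 14.9 with CIC::NUTM1. All 3 comparisons passed the test (log2 0.76, 1.46 and 0.70, edgeR adjusted p = 2.27e-04, 3.79e-08 and 6.96e-04). ARID3B, a DNA-binding protein, ran the other way between the fusions, at 82.4 ± 2.17, 129 ± 8.30 and 93.6 ± 2.67 CPM. Its change was 0.65 with CIC::DUX4 (adjusted p = 2.18e-07), 0.18 with CIC::NUTM1 (adjusted p = 0.0813) and -0.47 between them (adjusted p = 5.44e-05). CDC25A, a cell cycle phosphatase, was called with CIC::DUX4 (0.21, adjusted p = 0.0437) and with CIC::NUTM1 (0.28, adjusted p = 0.00362). Its CIC::DUX4 call was lost without any 1 of the 6 libraries (adjusted p = 0.0509 to 0.303) and in 5 of 9 other alternatives. NR6A1 was called with CIC::NUTM1 (0.40, adjusted p = 0.00358). The list's medians were -0.08, -0.0051 and 0.06. Without the first CIC::DUX4 library, 2 of the 14 were called higher with CIC::DUX4, against 4.45% of all genes: PBX3 (0.64, adjusted p = 0.00113) and ARID3B (0.60, adjusted p = 5.78e-06). Between the fusions they were then at 0.81 (adjusted p = 1.27e-04) and -0.42 (adjusted p = 0.00106).

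In the insulin-like growth factor axis, which holds classic mRNA targets of IGF2BP proteins and the HMGA2-linked PLAG factors, 3 of 12 genes were higher and 1 lower with CIC::DUX4, and 5 higher and 1 lower with CIC::NUTM1. The shares of all tested genes called higher and lower were 6.96% and 1.27% with CIC::DUX4 and 11.5% and 3.83% with CIC::NUTM1. IGF2, the fetal growth factor, went from 0.523 ± 0.206 CPM (SD, n = 3) to 1.79 ± 0.289 and 4.07 ± 1.73 (log2 1.74 and 2.90, edgeR adjusted p = 0.00602 and 6.22e-06). IGF1, its postnatal counterpart, had 0 counts in all empty vector libraries and was at least 16.7-fold higher with CIC::DUX4 and at least 4.10-fold higher with CIC::NUTM1, against a floor of 3 counts per library. IGF1R, the receptor for both, stood at 101 ± 5.00, 122 ± 4.44 and 169 ± 27.5 CPM, with log2 changes of 0.27 (adjusted p = 0.0578), 0.74 (adjusted p = 9.45e-07) and 0.47 between the fusions (adjusted p = 8.78e-04).

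IGF1 was lower in CIC::NUTM1 than in CIC::DUX4 libraries (log2 -2.02, edgeR adjusted p = 0.0149). This call was lost without the first or second CIC::DUX4 or the third CIC::NUTM1 library (-2.03 to -1.83, adjusted p = 0.0698 to 0.116). H19, the imprinted neighbour of IGF2, was called with CIC::DUX4 (1.84, adjusted p = 0.0215; 0.172 without the first CIC::DUX4 and 0.082 without the first empty vector library) and with CIC::NUTM1 (1.91, adjusted p = 0.01; 0.0527 without its first library). IGFBP5, which binds IGF ligands, fell by 0.42 and by 0.52 (adjusted p = 0.00227 and 1.31e-04). PLAG1, a zinc finger activator of IGF2, was called with CIC::NUTM1 (0.37, adjusted p = 0.0466), and that call was lost without the first or the third empty vector or the second or the third CIC::NUTM1 library (0.25 to 0.39, adjusted p = 0.0607 to 0.28) and in 5 of 9 other alternatives. The axis had medians of 0.05, 0.22 and 0.08, which placing IGF1 at its bound leaves as they are. Without the first CIC::DUX4 library, 2 of the 12 were called higher with CIC::DUX4, IGF1 (adjusted p = 2.34e-05) and IGF2 (1.61, adjusted p = 0.0415), and IGFBP5 lower (-0.38, adjusted p = 0.0294). In that fit 4.45% of all genes were called higher and 0.331% lower. IGF1R between the fusions was then 0.50 (adjusted p = 0.0025).

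Calls in the other HMG families and in 2 lists of RNA-binding proteins are set beside those of all tested genes. With CIC::DUX4, 6.96% of all tested genes were called higher and 1.27% lower. With CIC::NUTM1 these shares were 11.5% and 3.83%, and between the fusions 4.97% and 1.64%. Counts of calls in lists this small are no test of the lists. Of 8 HMGB and HMGN genes none was called higher against empty vector, and HMGN4, a nucleosome binder, was lower with CIC::DUX4 (log2 -0.31, edgeR adjusted p = 0.0331, lost without any 1 library except the third CIC::DUX4 one, at 0.0665 to 0.188) and with CIC::NUTM1 (-0.45, adjusted p = 8.79e-04). Between the fusions, HMGB1 (0.19, adjusted p = 0.0385) and HMGB2 (0.30, adjusted p = 0.00209; 0.28, adjusted p = 0.0192, without the first CIC::DUX4 library) had the higher level in CIC::NUTM1 libraries. The HMGB1 call was lost without any 1 of the CIC::DUX4 libraries or the third CIC::NUTM1 library (adjusted p = 0.0592 to 0.319) and in 5 of 9 other alternatives. Of 10 partners of IGF2BP complexes and other mRNA-stability proteins, 1 was called: ELAVL1, the ubiquitous HuR protein, with CIC::NUTM1 (0.36, adjusted p = 2.16e-04, and 0.26, adjusted p = 0.0117, above CIC::DUX4). The latter call was lost without the first or the third CIC::NUTM1 or the second CIC::DUX4 library (0.20 to 0.25, adjusted p = 0.0528 to 0.0903), and without the first CIC::DUX4 library it was 0.29 (adjusted p = 0.0214). Of 12 other fetal RNA-binding proteins 9 were tested; none was called with CIC::DUX4, and RBM38, CELF1 and ELAVL4 were called higher with CIC::NUTM1 (adjusted p = 0.0472, 0.0387 and 0.0374), calls that were lost in 5, 4 and 6 of 6 fits with a library left out (adjusted p = 0.059 to 0.319) and in 8, 5 and 1 of the other alternatives that gave a value (9, 9 and 7). The medians of the HMG, stability and fetal lists with CIC::NUTM1 were 0.05, 0.08 and 0.09. Those of let-7 biogenesis, other let-7 targets and the insulin-like growth factor axis were 0.01, -0.0051 and 0.22. For the 6 tested genes the median was 0.30. The genes and lists were picked with earlier results of these data known, so these medians are no test.

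**Figure D5:**
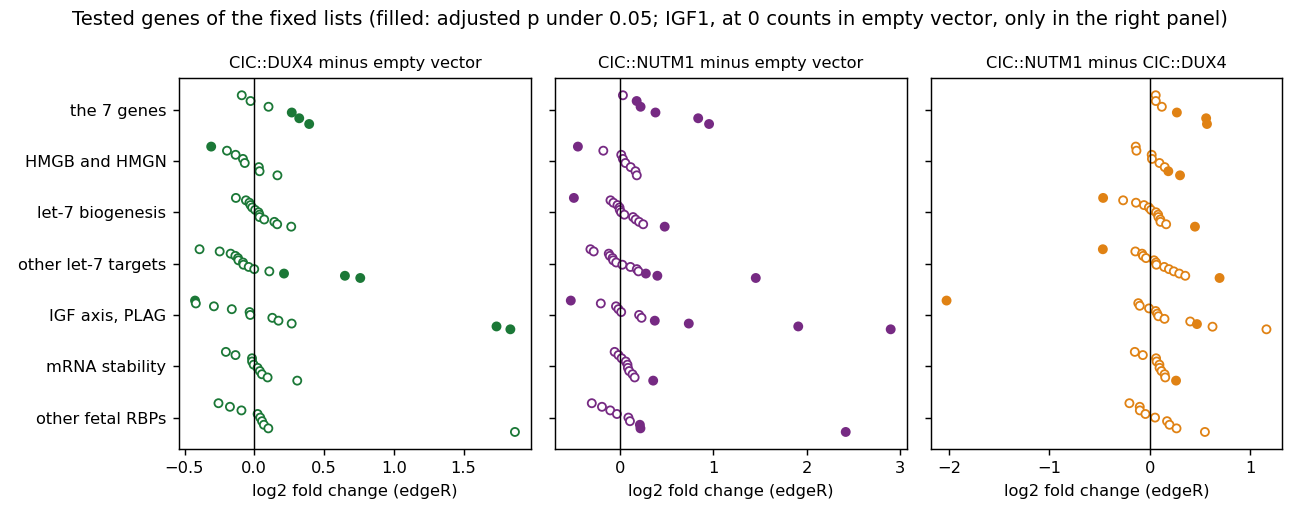
Log2 fold changes from edgeR of each tested gene in the 7-gene set and the 6 lists, by comparison, with filled points at an adjusted p under 0.05 and IGF1 drawn between the fusions alone. Outside the set, the insulin-like growth factor axis has the most called genes against empty vector, 4 of 12 with CIC::DUX4 (IGF1 included) and 6 of 12 with CIC::NUTM1. The shares of all tested genes called were 8.24% and 15.3%.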

How the data were processed

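PolyA RNA of 9 libraries (3 per group) was analysed. The authors deposited counts by Ensembl ID, not normalized, and, for 15811 named genes, log2 CPM. Per the submitters' processing notes, STAR 2.7.10b, R 4.2.2, edgeR 3.40.2 and GRCh38 were used. The counting program, annotation and use of strand are not given in the sources used here. Log2 CPM recomputed from the counts correlated at r = 1 with the deposited log2 values over 15714 matched genes.

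IDs were matched to symbols for 62622 of 62700. MATR3 had more than 1 ID, so its reads may be split. Counts were tested with edgeR 4.0.16 (R 4.3.3): filterByExpr, TMM scaling, and a robust quasi-likelihood fit of 3 group means to all 9 libraries (common dispersion 0.0102). A gene was called at an adjusted p under 0.05 (Benjamini-Hochberg, 17576 genes). The SE is the size of the change over the root of the F statistic. Low genes were given as counts with a floor of 3, and ratios were compared by exact permutation tests. Floors cover counting error only. Replicates of a group differed beyond counting noise (chi-square per degree of freedom 5.73 to 9.71). On counts simulated for CIC::DUX4 against empty vector, 70.5% of 200 genes of 17142 changed by 1 on the log2 scale were recovered, and 8.44% of calls were false.

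The genes and lists were chosen with earlier results of these data known. The rule named the 7 genes, list and overlapping genes called in a comparison, and the 5 genes most and 3 least like HMGA2 among those averaging 100 counts or more in a group. The lists were HMGB and HMGN proteins, let-7 biogenesis and LIN28 cofactors, other let-7 targets, the insulin-like growth factor axis with PLAG factors, IGF2BP partners with mRNA-stability proteins, other fetal RNA-binding proteins, 293T markers and markers of other cell types. The pluripotency list was chosen after levels were seen. TUT4 is named as the defining gene of its list.

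Positions and 3′ UTRs are from GENCODE 29 (GRCh38), promoters and let-7 from RefSeq (GRCh38.p14). Alternatives were DESeq2 size factors, library totals, upper quartile factors, no filter, a minimum of 10 counts per library, DESeq2 1.42.0, limma-trend (limma 3.58.1) on the authors' log2 values, a fit restricted to the groups compared, the replicate block, and each library left out. Figures were drawn with matplotlib 3.10.9.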

Additional observations from a re-analysis of the deposited data

Results flagged for a closer look

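The first CIC::DUX4 library held signal outside the main measurement: the 14 pluripotency markers summed to 269 CPM there, above every empty vector library (at most 111 CPM). LIN28A, at 627 counts, was measured in the same library. The list was chosen after the levels were seen, and its part in the CIC::DUX4 results was not tested beyond leaving the library out.

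IGF2BP1 differed between the effects of the fusions by 0.27 on the log2 scale (edgeR adjusted p = 0.00383). All CIC::DUX4 libraries were below and all CIC::NUTM1 libraries above the empty vector ones, which was part of the rule for listing IGF2BP1 and HMGB2 here. Against empty vector the edgeR adjusted p of IGF2BP1 was 0.444 with CIC::DUX4, not called, and 0.0353 with CIC::NUTM1.

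HMGB2 differed between the effects of the fusions by 0.30 on the log2 scale (edgeR adjusted p = 0.00209). It stood at 191 ± 5.39 CPM (SD, n = 3) with CIC::DUX4 and 236 ± 13.1 with CIC::NUTM1 around 209.7 ± 9.28 in empty vector. Neither change against empty vector was called (edgeR adjusted p = 0.225 and 0.0652). The libraries did not overlap with empty vector, as the listing rule asks, and neither did those of 25.7% and 31.1% of all tested genes with CIC::DUX4 and CIC::NUTM1.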

How the results depend on the processing

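Of the calls on the 7 genes, those of HMGA2 and IGF2BP3 in all 3 comparisons and of LIN28B with CIC::NUTM1 kept their side of the threshold in every alternative run. LIN28B with CIC::DUX4 and IGF2BP1 between the fusions each lost their call without 1 library, and IGF2BP1 and IGF2BP2 with CIC::NUTM1 lost theirs in 8 and 6 of 15 alternatives. HMGA1, never called, changed sign with CIC::NUTM1 under library totals (-0.0090) and upper quartile factors (-0.0070), and ranged from -0.0011 to 0.0658 with a library left out. With CIC::DUX4 it ranged from -0.0666 to 0.0053 with a library left out, positive without the third empty vector library (0.0053) or the second CIC::DUX4 library (0.0020).

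Counts over all genes moved more, and the cause was not tested. Main counts were 1224 higher and 224 lower with CIC::DUX4, 2018 higher and 673 lower with CIC::NUTM1, and 874 and 288 between the fusions. Library totals gave 1138 lower (1783 higher) with CIC::NUTM1 and 437 lower (695 higher) between the fusions, and upper quartile factors gave 1124 lower with CIC::NUTM1. With CIC::DUX4, no filter gave 380 lower, a fit of the groups compared alone gave 407 lower, and at least 10 counts in every library gave 774 higher. Leaving out each library gave 805 to 1258 higher and 60 to 229 lower with CIC::DUX4, 1625 to 2134 higher and 278 to 977 lower with CIC::NUTM1, and 516 to 940 higher and 156 to 324 lower between the fusions. The lows with CIC::DUX4 came without its first library.

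The labels give separate days to replicates but do not say that the same number in different groups shares a day. Correlations of deviations between same-numbered libraries were -0.0308 to 0.0753, with 0 of 9 over 0.1, and 2 of 9 libraries correlated best with their own number, so the numbers were not taken as pairs. With the replicate number as a block the counts were 1222 and 250, 2012 and 727, and 894 and 307, and no call on the 7 genes changed; of the named list genes, RBM38 lost its call (adjusted p = 0.0599). Depth limits LIN28A, which outside 1 library had 5 counts or fewer. With 3 libraries a group, 0.1 is the smallest p for a ratio.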
